A study of Mus musculus with 6 samples.

Results

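Glucose reaches the contracting heart through facilitative transporters and is either stored as glycogen or broken down by glycolysis to pyruvate, which enters the mitochondrion through pyruvate dehydrogenase or is reduced to lactate. The adult heart normally draws most of its energy from fatty acids, and pyruvate dehydrogenase kinases hold glucose oxidation in check. Many steps are shared among isoforms encoded by different genes, some of them typical of striated muscle and others used by most cells, including leukocytes and fibroblasts. The 37 genes described here encode glucose transporters, glycolytic enzymes, lactate enzymes and transporters, regulators of pyruvate dehydrogenase, and enzymes of glycogen and glycerol 3-phosphate metabolism. They were chosen by name, and all 37 were found among the 17441 genes with a value in at least 1 library. Of these, 36 had enough signal to be tested, among 13120 genes tested in all.

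mRNA was sequenced from heart tissue taken from below the ligature level in male mice aged 12 weeks by their labels. The 3 groups held 2 libraries each. WT Sham mice carried intact *Card9* and had surgery without infarction, WT MI mice had the left coronary artery tied 3 days earlier, and the group labelled *Card9* KO MI had the same operation in *Card9* knockout mice. By the study's methods the mice had a C57BL/6 background, and controls were littermates or C57BL/6 mice. The 6 libraries include no sham group of the knockout. A difference already present before infarction therefore cannot be told apart from a different response to it. Expression is given as the authors' FPKM, the fragments per kilobase of gene scaled to the depth of the library, and values are listed throughout in the order of replicates 1 and 2. Estimated depth differed by group, with 3168000 and 3030000 fragments for WT Sham, 4044000 and 3932000 for WT MI, and 4310000 and 4126000 for *Card9* KO MI. The worth of 3 fragments on a gene of 2 kb was an FPKM of 0.348 to 0.495, highest in WT Sham. *Card9* itself was 0.99 and 1.03 for WT Sham, 3.39 and 5.08 for WT MI, and 9.85 and 6.94 for *Card9* KO MI. The targeted gene was thus not lower in the libraries labelled as its knockout, so that group is called KO-labelled MI, and every direction drawn from it rests on the label. FPKM of the whole gene does not tell which parts of it were read, nor the level of its protein. The study examined CARD9 protein by western blot in bone marrow macrophages of WT and knockout mice. Positions of genes are those of mm9.

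Markers of several of the heart's cell types moved with the groups. The 13 cardiomyocyte markers were all listed, and their summed FPKM was 71408 and 72277 for WT Sham, 40915 and 42547 for WT MI, and 34459 and 39751 for KO-labelled MI. The 14 macrophage markers summed to 368 to 429 for WT Sham, 1563 to 2001 for WT MI and 2344 to 3214 for KO-labelled MI, and the 10 fibroblast markers to 495 to 519, 1491 to 2015 and 3071 to 3202. The 12 neutrophil markers summed to 5.40 to 7.87, 98.2 to 227 and 48.5 to 61.8, with *Ly6g*, *Elane* and *Camp* at 0 in every library. The 9 endothelial markers moved less, at 345 to 354, 365.6 to 366.4 and 413 to 416. The sum of the 8 skeletal muscle markers was 1314 and 320 within WT Sham alone and 489 to 606 in the infarct libraries. In tissue of this kind, fewer cells of a type and less RNA per cell cannot be told apart.

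Promoter windows of some paired isoforms are shown first, to set genes that moved apart after infarction side by side. *Slc16a3* is shown without its partner *Slc16a1*. The windows printed were picked with these directions known. HIF-1, a transcription factor stabilised at low oxygen, is known to bind ACGTG and likewise GCGTG, and several glycolytic genes are among its textbook targets. RefSeq windows of the 250 bases before the start (build GRCm38.p6) were found for 33 of the 37 genes, with 52 windows in all, since some genes have several starts that can overlap. On either strand, ACGTG was found in 20 of these 52 windows (38.5%) against 16.6% of 32851 windows of all genes, and GCGTG in 26 of them against 28.2%. AGGTCA, a motif of nuclear receptors, was found in 8 windows (15.4%) against 14.0%. At least 1 window with either HIF-1 string belonged to 28 of the 33 genes, against 41.5% of 27025 genes. It belonged to 11 of 11 genes that rose after infarction, 9 of 10 that fell and 7 of 11 without a call, as tested further on. The windows of these genes had a median GC content of 58.8%, and all windows had 52.4%. No window was given for *Slc2a3*, *Slc2a4*, *Gpd1* and *Pdp1*. A window with ACGTG belonged to 8 of the 11 that rose, 5 of the 10 that fell and 3 of the 11 without a call, against 18.5% of 27025 genes.

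The windows of *Ldha* and *Ldhb* (the isoforms of lactate dehydrogenase), of *Pgam1* and *Pgam2* (the isoforms of phosphoglycerate mutase) and of the lactate exporter *Slc16a3* are printed below from 5′ to 3′ in the orientation of the gene, with ACGTG and also GCGTG in capitals, on either strand. The upstream window of *Ldha* (chr7:46845554-46845803, plus strand) held 5 matches to ACGTG in 3 stretches, where a palindromic CACGTG counts once on each strand. *Slc16a3* (chr11:120948817-120949066, plus strand) held ACGTG in 2 places, and *Pgam1* (chr19:41911621-41911870, plus strand) held ACGTG once and GCGTG in 2 places. *Ldhb* (chr6:142507958-142508207, minus strand) held 1 GCGTG, and *Pgam2* (chr11:5803797-5804046, minus strand) held neither. Some windows not printed went otherwise. *Pfkm*, *Pdk2* and *Pfkfb2*, which fell, held ACGTG, while *Pfkp* and *Eno1*, which rose, held GCGTG only. *Slc16a1*, without a call, held both strings. The counts by direction above cover all of these genes.
Ldha: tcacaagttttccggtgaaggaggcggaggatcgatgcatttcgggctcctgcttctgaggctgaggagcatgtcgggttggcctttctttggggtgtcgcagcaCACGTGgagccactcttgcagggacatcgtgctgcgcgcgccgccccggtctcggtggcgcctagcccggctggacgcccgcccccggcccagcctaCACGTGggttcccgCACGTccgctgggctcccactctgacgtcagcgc
Slc16a3: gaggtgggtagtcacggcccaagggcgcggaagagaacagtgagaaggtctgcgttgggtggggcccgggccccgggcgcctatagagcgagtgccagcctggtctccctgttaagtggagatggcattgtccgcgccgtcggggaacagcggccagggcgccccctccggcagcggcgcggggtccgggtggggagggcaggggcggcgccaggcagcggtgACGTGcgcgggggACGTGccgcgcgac
Pgam1: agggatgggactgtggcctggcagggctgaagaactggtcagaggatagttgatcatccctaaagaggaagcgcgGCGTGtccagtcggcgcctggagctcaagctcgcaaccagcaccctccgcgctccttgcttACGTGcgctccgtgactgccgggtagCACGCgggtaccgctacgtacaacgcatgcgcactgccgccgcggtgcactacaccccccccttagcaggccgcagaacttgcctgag
Ldhb: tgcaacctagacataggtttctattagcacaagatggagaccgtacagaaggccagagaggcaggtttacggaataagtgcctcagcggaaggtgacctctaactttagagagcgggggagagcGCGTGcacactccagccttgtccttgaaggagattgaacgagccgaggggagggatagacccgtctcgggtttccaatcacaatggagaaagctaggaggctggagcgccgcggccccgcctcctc
Pgam2: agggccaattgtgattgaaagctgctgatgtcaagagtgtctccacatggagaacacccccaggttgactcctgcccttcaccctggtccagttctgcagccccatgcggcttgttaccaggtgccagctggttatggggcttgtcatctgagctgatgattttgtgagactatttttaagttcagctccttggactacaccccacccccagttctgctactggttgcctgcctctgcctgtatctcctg

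To determine how infarction altered these genes, WT MI was compared with WT Sham. At 3 days 12 of the 36 tested genes rose and 11 fell. Those that rose included the glucose transporter *Slc2a1*, the lactate exporter *Slc16a3*, the enolase *Eno1* and the phosphoglycerate mutase *Pgam1*, and those that fell included the glucose transporter *Slc2a4*, the phosphofructokinase *Pfkm*, and the muscle isoforms *Pgam2* and *Eno3*. The 12 that rose were 33.3% of those tested, against 27.7% of all 13120 genes, and the 11 that fell were 30.6%, against 9.39% of all genes. Without overlap, 18 of the genes lay higher and 12 lower after infarction, against 48.3% and 22.1% of all genes. The test was limma on log2(FPKM + 1) with Benjamini-Hochberg adjustment over all genes, and a call means an adjusted p below 0.05. The fold changes below are on this scale, which understates the change of genes with low values, and each is followed by its standard error (SE). The median log2 fold change was 0.06 over the 36 genes and 0.19 over all genes. That of all genes moved to 0.05 with upper-quartile scaling and to −0.08 with quantile normalization, under which 21.6% and 17.4% of all genes were higher and 14.2% and 18.7% lower, while 11 or 12 of the glucose genes were higher and 11 were lower. All 23 called genes had the same sign under every limma setting in which they were tested, and 18 were called under each of these. The study's own screen, recomputed as a fold of at least 2 in the group means and a probability of at least 0.8, passed 7 of the genes higher (6.06% of all genes screened) and 3 lower (0.906%), namely *Eno3*, *Pdk2* and *Pdk4*. Since nothing in the labels beyond replicate numbers tells how the libraries were separated, the p-values measure the spread between these libraries, which may be technical.

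**Figure D1:**
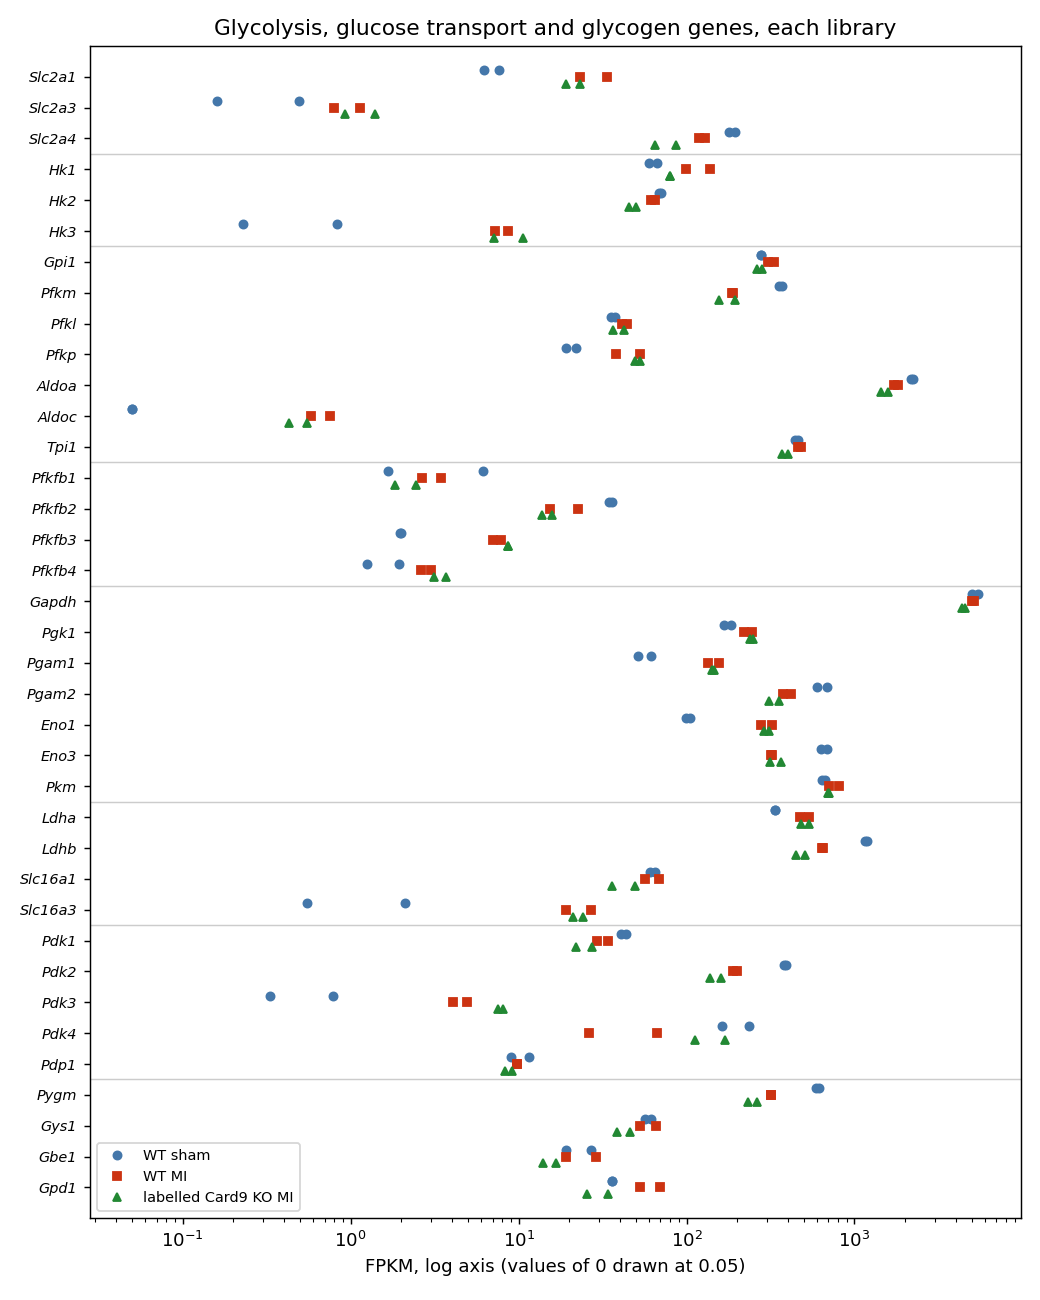
FPKM of the 37 genes (horizontal axis, log scale, with values of 0 drawn at 0.05) in each of the 6 libraries, grouped by role, with circles for WT Sham, squares for WT MI and triangles for KO-labelled MI. *Gapdh* lies highest at 4384 to 5456, and *Slc16a3* and *Pdk3* show the clear gaps between sham and infarcted libraries.

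Among the glucose transporters, the insulin-responsive *Slc2a4* (GLUT4) was the most abundant. Its FPKM was 179 and 196 for WT Sham, 119 and 128 for WT MI, and 64.7 and 86.4 for KO-labelled MI, so that the 3 groups did not overlap. It fell by 0.60 on the log2 scale in WT MI (SE 0.14, adjusted p = 0.013), and the call was lost without WT Sham replicate 2 or WT MI replicate 1, with an adjusted p of up to 0.081 over all settings. *Slc2a1* (GLUT1, the basal transporter of most cells, on chromosome 4 at 118781316 to 118809935) had 6.24 and 7.66 for WT Sham, 33.5 and 23.2 for WT MI, and 19.1 and 23.2 for KO-labelled MI. It rose with a log2 fold change of 1.87 (SE 0.19, adjusted p = 0.00035), and both infarct groups lay above sham but overlapped each other. *Slc2a3* (GLUT3) stayed near the limit of detection, at 0.16 and 0.49, 0.80 and 1.14, and 0.93 and 1.39, without a call (adjusted p = 0.12).

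Hexokinases phosphorylate glucose on entry. *Hk1*, which lay below *Hk2* in sham replicate 1 and 2 and above it in every infarct library, was 66.3 and 60.2 for WT Sham, 138 and 99.3 for WT MI, and 79.9 and 79.4 for KO-labelled MI. It rose in WT MI (log2 fold change 0.88, SE 0.15, adjusted p = 0.0034). *Hk3*, an isoform known from myeloid cells, was 0.83 and 0.23 for WT Sham, 7.22 and 8.65 for WT MI, and 10.6 and 7.17 for KO-labelled MI. It rose by a log2 fold change of 2.57 (SE 0.26, adjusted p = 0.00031), from sham values worth only a few fragments. *Hk2*, the insulin-regulated isoform of muscle, was 68.8 and 70.02 for WT Sham and 64.6 and 61.4 for WT MI, where it was not called (log2 fold change −0.14, adjusted p = 0.30), and 45.4 and 50.1 for KO-labelled MI, below both other groups.

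In upper glycolysis, *Aldoa* (aldolase A, which splits fructose 1,6-bisphosphate) had the highest level, at 2228 and 2164, 1811 and 1714, and 1433 and 1575 in the 3 groups. It fell by 0.32 on the log2 scale in WT MI (SE 0.10, adjusted p = 0.033), but this call was lost when any 1 of the 4 libraries was left out (adjusted p of up to 0.20 over all settings). The subunits of phosphofructokinase, the committed step of glycolysis, parted. The muscle subunit *Pfkm* was 354 and 370 for WT Sham, 190 and 188 for WT MI, and 157 and 194 for KO-labelled MI, and fell by 0.93 on the log2 scale (SE 0.11, adjusted p = 0.00066). The platelet subunit *Pfkp* was 21.9 and 19.2, 53.0 and 38.0, and 49.5 and 52.7, and rose (log2 fold change 1.09, SE 0.16, adjusted p = 0.0017). The liver subunit *Pfkl*, at 37.7 and 35.3, 44.5 and 41.5, and 36.6 and 42.3, was not called. The isomerase *Gpi1* was 278 and 277, 331 and 304, and 262 and 283, and the isomerase *Tpi1* was 440 and 462, 480 and 464, and 369 and 403. Both lay above sham in WT MI without a call (log2 fold changes 0.19 and 0.07), and *Tpi1* changed sign under another scaling. *Aldoc* was listed at 0 in both sham libraries and at 0.43 to 0.75 in the infarcts, and was not tested.

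The bifunctional enzymes that make and remove fructose 2,6-bisphosphate, an activator of phosphofructokinase, also parted. The cardiac isoform *Pfkfb2* was 34.7 and 35.9 for WT Sham, 15.5 and 22.7 for WT MI, and 15.8 and 13.8 for KO-labelled MI, and fell by 0.88 on the log2 scale (SE 0.17, adjusted p = 0.0065). The inducible *Pfkfb3* was 1.99 and 1.98, 7.82 and 7.09, and 8.70 and 8.63, and rose (log2 fold change 1.501, SE 0.15, adjusted p = 0.00029). *Pfkfb4*, at 1.95 and 1.26 for sham and 2.62 and 2.99 for WT MI, missed the threshold (adjusted p = 0.071), and *Pfkfb1* ranged from 1.66 to 6.15 within WT Sham alone.

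Lower glycolysis held the most abundant of these genes, *Gapdh*, the glyceraldehyde 3-phosphate dehydrogenase to which the study normalised its qPCR. *Gapdh* was 5456 and 4979 for WT Sham, 5127 and 5032 for WT MI, and 4384 and 4572 for KO-labelled MI, or 0.928% to 1.12% of the summed FPKM of a library. WT MI and WT Sham overlapped (log2 fold change −0.04, SE 0.10, adjusted p = 0.80), but the direction depended on the scaling, with −0.20 after upper-quartile scaling and 0.61, a call, after quantile normalization. *Gapdh* has many processed pseudogenes, as do several other glycolytic genes, and how reads that match more than 1 place were assigned is not given in the sources used here.

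The enolases differed most within this stretch. *Eno1* (the form of most cells, chromosome 4 at 149610830 to 149622988) was 104.7 and 99.6 for WT Sham, 325 and 280 for WT MI, and 309 and 288 for KO-labelled MI. It rose by a log2 fold change of 1.55 (SE 0.10, adjusted p = 5.8e-05). *Eno3* (the muscle form, chromosome 11 at 70470704 to 70476015) was 634 and 683, 319 and 321, and 315 and 368, and fell by 1.04 on the log2 scale (SE 0.10, adjusted p = 0.00028). On this scale per gene length *Eno3* was far above *Eno1* in both sham libraries, and the levels lay closer in the infarct libraries.

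Phosphoglycerate mutase showed the same arrangement. *Pgam1* was 61.8 and 51.3 for WT Sham, 156 and 134 for WT MI, and 145 and 141 for KO-labelled MI, and rose (log2 fold change 1.34, SE 0.12, adjusted p = 0.00019). The muscle isoform *Pgam2* was 689 and 597, 373 and 417, and 311 and 357, and fell by 0.70 on the log2 scale (SE 0.12, adjusted p = 0.0029). *Pgk1*, the phosphoglycerate kinase of somatic cells, was 183 and 167, 246 and 221, and 238 and 249, and rose less (log2 fold change 0.42, SE 0.10, adjusted p = 0.012), and this call was lost under both other scalings and without WT Sham replicate 2 or WT MI replicate 1 (adjusted p of up to 0.099). *Pkm*, the pyruvate kinase of muscle and most other cells, was 642 and 665 for WT Sham and 806 and 707 for WT MI, without a call (adjusted p = 0.13).

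Lactate genes included the largest rise. *Slc16a3* (MCT4, a lactate exporter of glycolytic cells, chromosome 11 at 120809794 to 120822182) was 2.11 and 0.55 for WT Sham, 27.1 and 19.2 for WT MI, and 24.3 and 21.1 for KO-labelled MI. Its log2 fold change was 3.44 (SE 0.31, adjusted p = 0.00021), with values of 2.94 to 3.94 when 1 library was left out. *Slc16a1* (MCT1, the transporter through which the heart takes up lactate) was 65.0 and 60.8 for sham and 68.2 and 56.2 for WT MI, which overlapped, and 36.2 and 49.2 for KO-labelled MI. *Ldha* was 337 and 335, 533 and 475, and 477 and 535, and rose (log2 fold change 0.58, SE 0.10, adjusted p = 0.0034). *Ldhb*, the heart isoform, was 1163 and 1187, 637 and 650, and 447 and 505, with no overlap among the 3 groups, and fell by 0.87 on the log2 scale in WT MI (SE 0.09, adjusted p = 0.00040).

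Pyruvate dehydrogenase kinases inactivate pyruvate dehydrogenase and thereby limit the oxidation of glucose. *Pdk4*, the kinase induced by fasting and fatty acids (chromosome 6 at 5433351 to 5446309), was 162 and 235 for WT Sham, 26.4 and 66.6 for WT MI, and 112 and 169 for KO-labelled MI. It fell by 2.19 on the log2 scale in WT MI (SE 0.40, adjusted p = 0.0044), the largest fall of these genes, with values from −2.84 to −1.54 when 1 library was left out. *Pdk2*, the kinase with the highest level in every library but KO-labelled replicate 2, was 383 and 394, 189 and 199, and 139 and 160, and fell by 0.997 (SE 0.10, adjusted p = 0.00027). *Pdk1* was 43.7 and 40.8, 34.1 and 29.3, and 22.1 and 27.3, and its call (−0.41, SE 0.13, adjusted p = 0.048) was lost without any 1 of the 4 libraries, with an adjusted p of up to 0.23 over all settings. *Pdk3* was the exception, with 0.79 and 0.33 for WT Sham, 4.95 and 4.07 for WT MI, and 8.13 and 7.51 for KO-labelled MI, and rose (log2 fold change 1.83, SE 0.21, adjusted p = 0.00051) from sham values near the worth of 3 fragments. The phosphatase subunit *Pdp1*, which opposes the kinases, was 8.30 to 11.6 in all libraries and was not called.

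Of the glycogen genes, *Pygm*, the muscle glycogen phosphorylase that releases glucose units, was 594 and 612 for WT Sham, 316 and 320 for WT MI, and 233 and 263 for KO-labelled MI, and fell by 0.92 on the log2 scale (SE 0.09, adjusted p = 0.00030). Glycogen synthase *Gys1* was 56.9 and 61.5, 66.1 and 53.2, and 38.8 and 46.0, and the branching enzyme *Gbe1* was 26.8 and 19.2, 29.1 and 19.3, and 14.1 and 16.8. Both overlapped between WT MI and sham and were lower in the KO-labelled libraries than in either. *Gpd1*, which links glycolysis to glycerol 3-phosphate (chromosome 15 at 99547946 to 99555436), was 36.2 and 35.9 for WT Sham, 69.99 and 53.2 for WT MI, and 25.4 and 34.1 for KO-labelled MI. It rose in WT MI (log2 fold change 0.74, SE 0.17, adjusted p = 0.012), a call lost without WT Sham replicate 2 or WT MI replicate 1 (adjusted p of up to 0.083 over all settings).

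**Figure D2:**
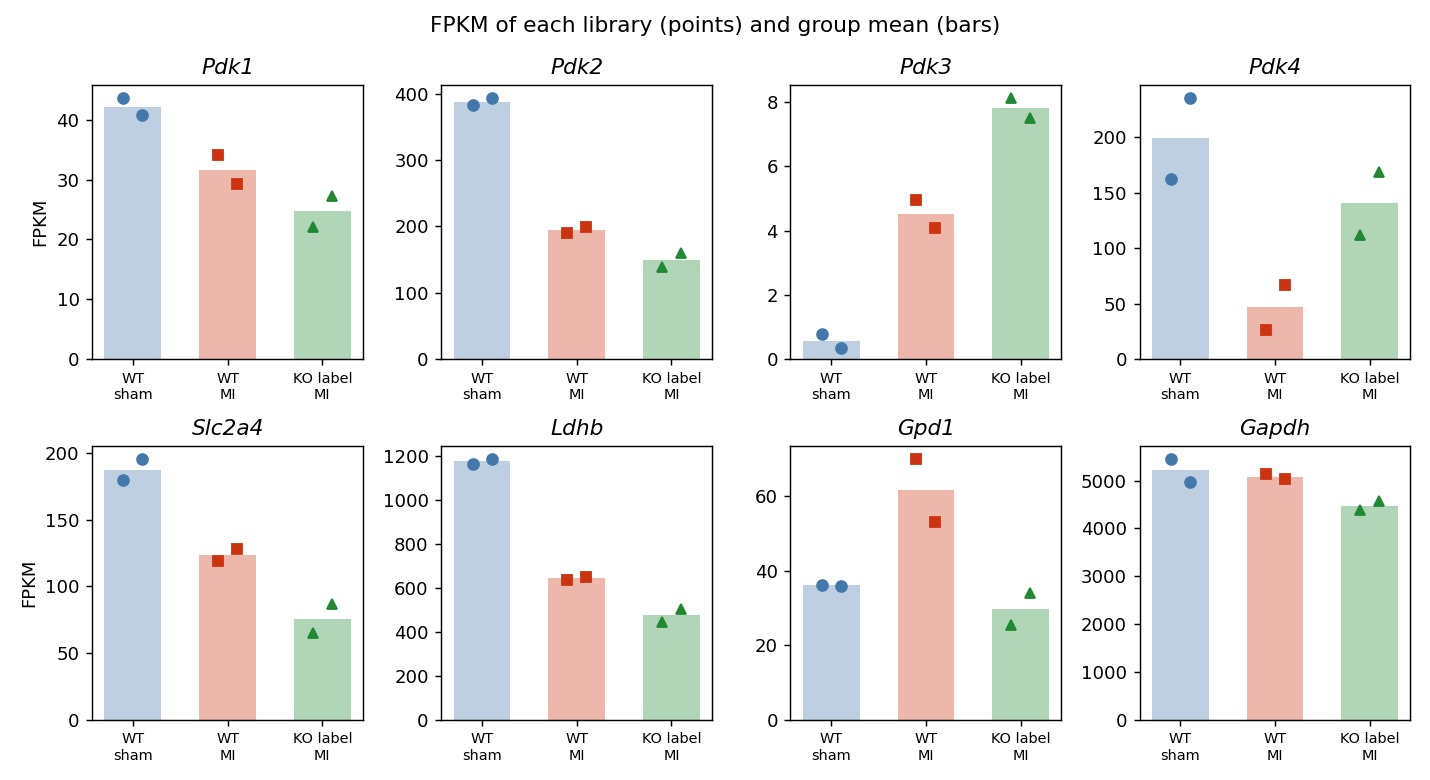
FPKM of 8 genes in each library (points) with the mean of each group of 2 libraries (bars from 0), for WT sham, WT MI and the libraries labelled *Card9* KO MI. *Pdk4* is lowest in WT MI at 26.4 and 66.6, *Gpd1* is highest there at 69.99 and 53.2, and *Slc2a4* and *Ldhb* step down over the 3 groups.

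The cardiomyocyte markers changed over a similar range. Of the 13 markers, 11 fell in WT MI and none rose, and their log2 fold changes ran from −1.24 to −0.20 around a median of −0.94. Of the 11 glucose genes that fell, 10 lay inside this range, and *Pdk4* lay below it. Of the macrophage markers 13 of 14 rose (median 1.79), and of the fibroblast markers 8 of 10. All 7 tested of the 12 neutrophil markers rose (median 3.15), as did all 3 tested of the 6 erythroid markers (median 1.43). The part of these cell type markers in the changes of the glucose genes was not tested.

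To compare isoforms without the influence of library scaling, the share of 1 isoform in the summed FPKM of its family was computed within each library for 9 families. It was an isoform typical of muscle or the highest one in both sham libraries, and for the kinases *Pdk4* and *Pdk2* together. This share was lower in both WT MI libraries than in both WT Sham libraries, and likewise in both KO-labelled MI libraries, in all 9 families. In aldolase this rested on *Aldoc* alone, listed at 0 in both sham libraries and at 0.43 to 0.75 in the infarct libraries, near the worth of 3 fragments. With 2 libraries against 2 the exact two-sided permutation test cannot give a p below 0.333, so the shares are a description. The isoforms were chosen with earlier results of these data known, and some by their sham level. That choice favoured a lower share after infarction, so the count of families is not a test. *Hk2* and *Slc16a1* were themselves without a call in WT MI (log2 fold changes −0.14 and −0.02). For enolase the share of *Eno3* was 85.8% and 87.3% for WT Sham, 49.5% and 53.4% for WT MI, and 50.5% and 56.1% for KO-labelled MI, the largest step of the 9. For phosphoglycerate mutase the share of *Pgam2* was 91.8% and 92.1%, 70.6% and 75.7%, and 68.2% and 71.6%.

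The earlier steps behaved alike in direction. The *Pfkm* share of phosphofructokinase was 85.6% and 87.2% for WT Sham, 66.1% and 70.2% for WT MI, and 64.6% and 67.1% for KO-labelled MI. *Slc2a4* made up 96.6% and 96.0% of the 3 transporters in sham, 77.6% and 84.0% for WT MI, and 76.4% and 77.8% for KO-labelled MI. The *Hk2* share of hexokinase was 50.6% and 53.7%, 30.8% and 36.2%, and 33.4% and 36.7%. While the summed FPKM of phosphofructokinase was lower in WT MI (267 to 288) than in sham (414 to 425), that of hexokinase was higher (169 to 210 against 130 to 136).

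In the lactate families the KO-labelled libraries also lay below both WT MI libraries. *Ldhb* made up 77.5% and 78.0% of lactate dehydrogenase for WT Sham, 54.4% and 57.8% for WT MI, and 48.3% and 48.6% for KO-labelled MI. *Slc16a1* made up 96.9% and 99.1% of the *Slc16a1* and *Slc16a3* sum in sham, 71.6% and 74.5% for WT MI, and 59.8% and 69.9% for KO-labelled MI. *Pdk4* and *Pdk2* together were 92.5% and 93.9% of the kinase sum in sham, 84.7% and 88.8% for WT MI, and 89.3% and 90.4% for KO-labelled MI, the single family in which the KO-labelled libraries lay above WT MI. In the other 6 families the shares of the 2 infarct groups overlapped. *Aldoa* was nearly the whole of its family in every library, at 99.96% or more.

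**Figure D3:**
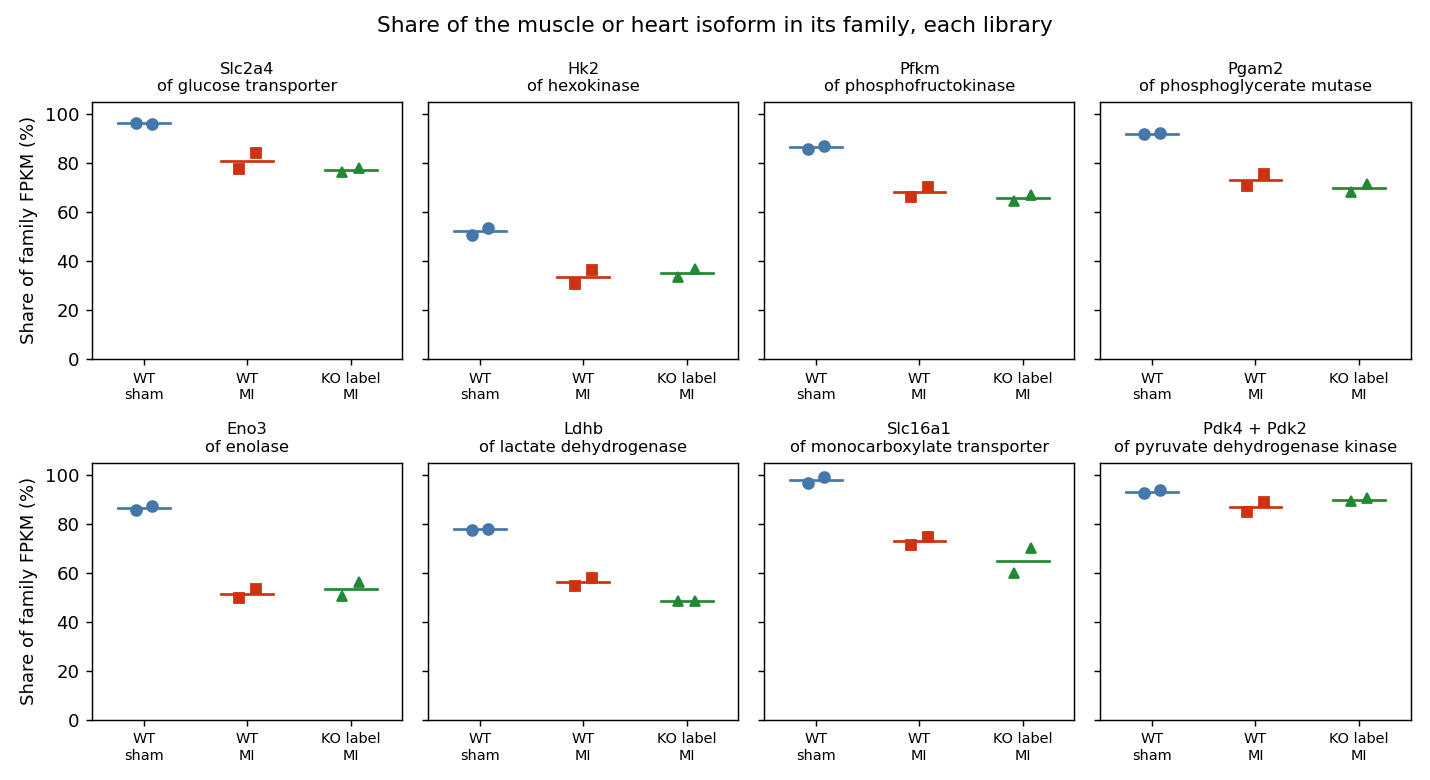
Share (percent of the family's summed FPKM, vertical axis) of a chosen isoform in each of the 6 libraries for 8 families, aldolase left out. The isoform was typical of muscle or the highest one in both sham libraries, and for the kinases *Pdk4* and *Pdk2* were summed. Both libraries of each infarct group lie below both sham libraries in every family, with the widest gap for *Eno3*, from 85.8% and 87.3% to 49.5% and 53.4% for WT MI.

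To examine the effect of the *Card9* KO label after infarction, KO-labelled MI was compared with WT MI. Of the 36 genes, 1 fell (0.587% of all genes fell) and 0 rose by limma (0.816% of all genes rose). *Gpd1*, at 25.4 and 34.1 against 69.99 and 53.2, fell by 1.03 on the log2 scale in KO-labelled MI (SE 0.17, adjusted p = 0.042), where it was not called against sham (log2 fold change −0.28, adjusted p = 0.21). Over all settings its adjusted p ranged from 0.029 to 0.26, and the call was lost without WT MI replicate 1, WT MI replicate 2 or KO-labelled replicate 1, although the log2 fold change then stayed between −1.23 and −0.82. At an unadjusted limma p below 0.05, 2 of the 36 genes were higher and 14 lower, against 11.5% and 8.57% of all genes in these directions. Without overlap, 18 genes were lower and 4 higher in the KO-labelled libraries, and over all genes 21.9% were lower and 30.8% higher without overlap. The median log2 fold change was −0.20 over the 36 genes and 0.04 over all genes, and 26 of the 36 were negative and 10 positive, against 43.7% and 56.3% of all genes.

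The 6 genes named next had an adjusted p below 0.10 without a call, and *Pdk4* was the one among them that was higher. *Slc2a4* differed by −0.71 on the log2 scale (SE 0.14, adjusted p = 0.058), *Ldhb* by −0.44 (SE 0.09, adjusted p = 0.069), *Hk2* by −0.39 (SE 0.10, adjusted p = 0.094), *Pdk2* by −0.38 (SE 0.10, adjusted p = 0.099) and *Pygm* by −0.36 (SE 0.09, adjusted p = 0.099). *Slc2a4* and *Ldhb* became calls when only genes with a mean FPKM of at least 5 were tested and without KO-labelled replicate 2, with lowest adjusted p over all settings of 0.041 and 0.049 and highest of 0.27 and 0.31. *Pdk4* was higher by 1.69 on the log2 scale (SE 0.40, adjusted p = 0.088), with 112 and 169 against 26.4 and 66.6, and passed the recomputed screen, which 0.728% of genes passed in that direction. Its difference ranged from 1.04 to 2.34 when 1 library was left out. *Gpd1* passed the screen in the other direction, with 0.332% of genes. *Pdk3* was higher by 0.68 (SE 0.21, adjusted p = 0.14).

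Of the genes that rose after infarction, some overlapped between the infarct groups and others did not. *Hk1* was lower in both KO-labelled libraries than in both WT MI libraries (log2 fold change −0.55, SE 0.15, adjusted p = 0.11), as *Pfkfb3* was higher (0.19, SE 0.15, adjusted p = 0.52), and *Slc2a1* stood at −0.39 (SE 0.19, adjusted p = 0.31) with overlap. The log2 fold change between these groups was −0.01 for *Pgam1* (SE 0.12), −0.02 for *Eno1* (SE 0.10), 0.01 for *Ldha* (SE 0.10) and −0.01 for *Slc16a3* (SE 0.31), with libraries that overlapped, and the first 3 changed sign with the scaling. *Gapdh* was lower in both KO-labelled libraries than in both WT MI libraries (log2 fold change −0.18, SE 0.10) without a call (adjusted p = 0.36). The cardiomyocyte markers differed by −0.58 to 0.06 between the infarct groups (median −0.13), and *Slc2a4*, *Gpd1* and *Gbe1* lay below that range. Of the 18 genes lower without overlap, 15 were lowest in KO-labelled replicate 1 and 3 in KO-labelled replicate 2. The share over all genes was not computed. KO-labelled replicate 1 also had the lowest cardiomyocyte sum, and a link with this count was not tested. The macrophage markers had a median of 0.73 on the log2 scale (from −1.03 to 1.54) with 0 called, and 3 of the fibroblast markers rose. The 7 adipocyte markers, with *Lep* at 0 in every library, summed to 473 and 497 for WT MI and 606 and 630 for KO-labelled MI. *Fabp4* was the highest of them. Of the 3 adipocyte markers tested 0 were called, with log2 fold changes from −1.18 to 0.37. The neutrophil markers had a median of −0.64 and the erythroid markers of −0.83, with 0 called in either list. The part of all these markers in these differences was not tested.

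**Figure D4:**
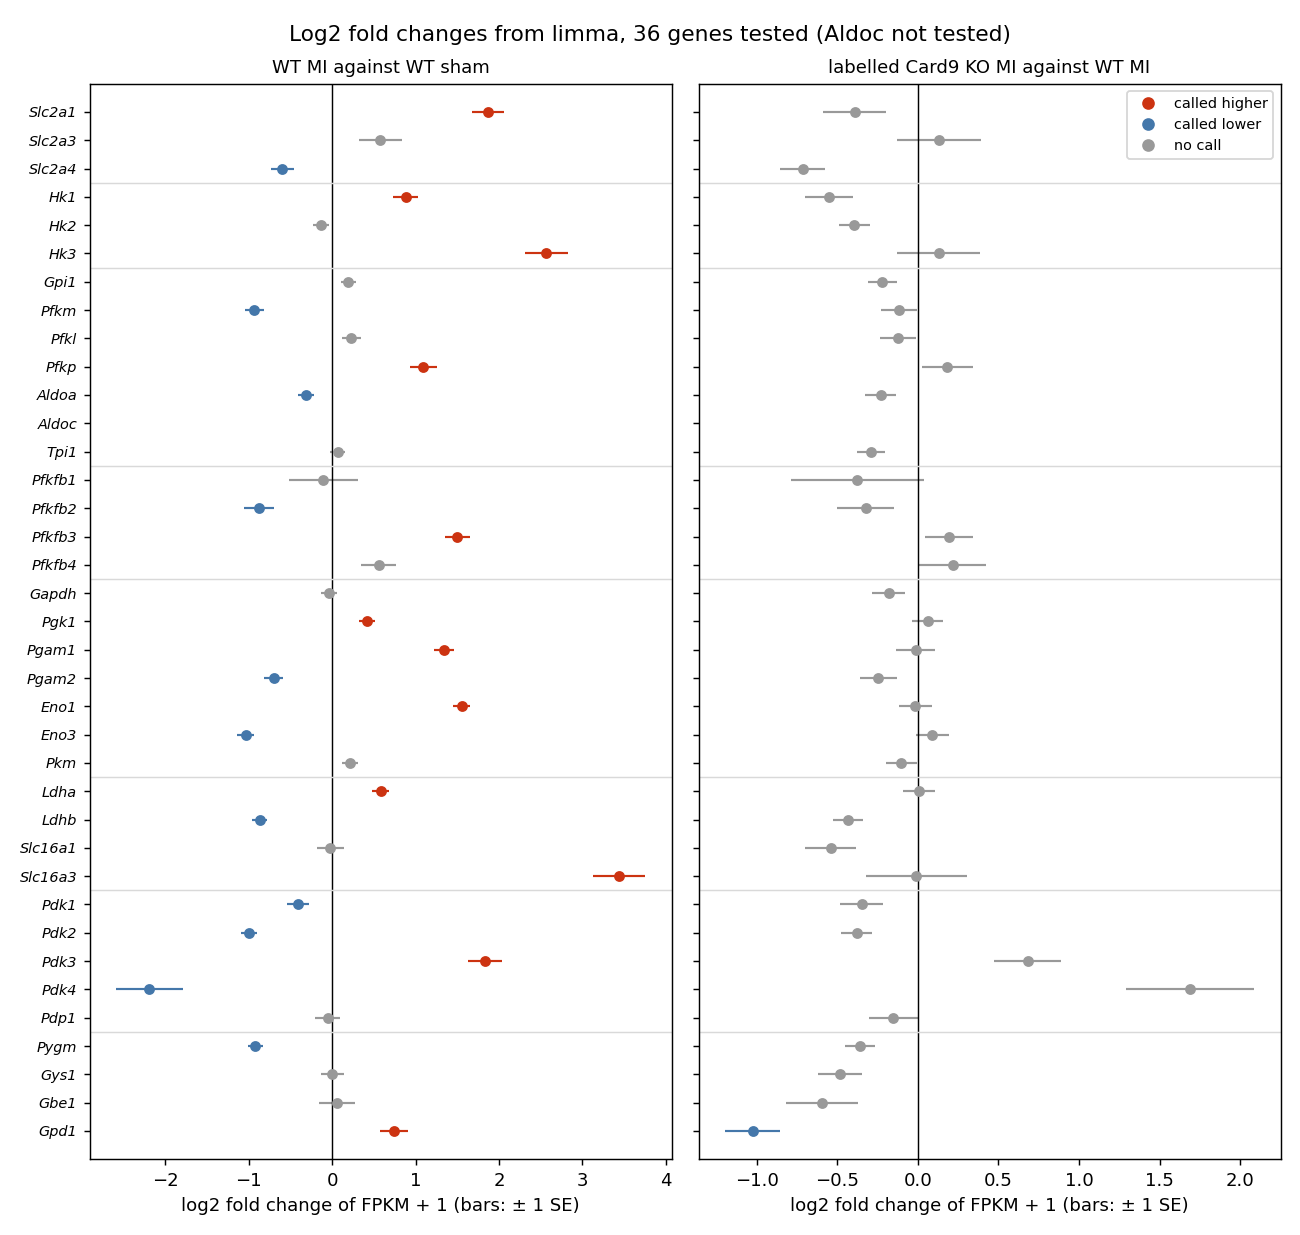
Log2 fold change of log2(FPKM + 1), with its standard error as bars, for the 36 tested genes by role, for WT MI against WT Sham and KO-labelled MI against WT MI, in red or blue where the adjusted p was below 0.05 and in grey where it was not. *Aldoc*, not tested, has no point. After infarction the genes spread from −2.19 (*Pdk4*) to 3.44 (*Slc16a3*), whereas between the infarct groups most lie slightly below 0 and *Pdk4* lies at 1.69.

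Against the same sham libraries, 11 genes were higher in KO-labelled MI (34.8% of all genes were) and 13 were lower (14.3% of all genes were), a comparison that shares its controls with that of WT MI. With quantile normalization 21.6% of all genes were higher and 26.2% lower, and with upper-quartile scaling 27.6% and 19.3%, while 11 of the glucose genes were higher and 16 lower under either. Without overlap, 14 were higher and 17 lower (51.6% and 24.5% of all genes), and the screen passed 8 higher (8.56%) and 6 lower (1.94%). *Slc2a4* was at −1.31 here and at −0.60 in WT MI, *Ldhb* at −1.30 and −0.87, *Pygm* at −1.28 and −0.92, and *Pdk2* at −1.38 and −0.997. *Hk2* (−0.53, adjusted p = 0.0028), *Slc16a1* (−0.56, adjusted p = 0.020), *Gys1* (−0.48, adjusted p = 0.021) and *Pfkfb4* (0.77, adjusted p = 0.017) passed the threshold here and not in WT MI. The call of *Slc16a1* was lost without either sham library or KO-labelled replicate 1, that of *Gys1* without WT Sham replicate 2 or KO-labelled replicate 1, and that of *Pfkfb4* without WT Sham replicate 2 or KO-labelled replicate 2 and with quantile normalization (adjusted p of up to 0.11, 0.12 and 0.24). *Hk1*, *Gpd1* and *Pdk4* passed it in WT MI alone, with *Pdk4* at −0.50 (adjusted p = 0.33) in the KO-labelled libraries. Of these 7 genes the direct test between the infarct groups passed for *Gpd1*, as given above.

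The neighbouring pathways were followed through lists of their other genes. All 9 genes of the pyruvate dehydrogenase complex and the mitochondrial pyruvate carrier fell in WT MI (median log2 fold change −0.58), as they did in KO-labelled MI (median −0.88). The steepest was the phosphatase *Pdp2*, at 6.83 and 8.74 for WT Sham, 3.25 and 4.01 for WT MI, and 3.56 and 2.90 for KO-labelled MI (−0.92 in WT MI, SE 0.19, adjusted p = 0.0076). Of 18 tested further genes of glycogen metabolism, 8 fell and 2 rose in WT MI. One that rose was the liver phosphorylase *Pygl*, at 1.34 and 1.28, 6.02 and 3.86, and 6.47 and 4.18 (log2 fold change 1.34, SE 0.25, adjusted p = 0.0050).

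Most genes of the side branches of glycolysis rose. In the pentose phosphate pathway, which makes NADPH and ribose, 5 of 8 genes rose in WT MI and none fell (median 0.68), led by *G6pdx*, its entry enzyme, at 3.34 and 3.61 for sham, 16.7 and 14.7 for WT MI, and 21.0 and 18.7 for KO-labelled MI (log2 fold change 1.90, SE 0.14, adjusted p = 8.0e-05). All 5 genes of the hexosamine pathway, which feeds glycosylation, rose (median 0.67), with *Gfpt2* at 7.79 and 9.78, 22.9 and 20.8, and 15.5 and 18.8 (1.23, SE 0.15, adjusted p = 0.00081), and 4 of the 5 rose in KO-labelled MI, led by *Gnpnat1* (0.95, adjusted p = 0.0012).

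Of the 9 genes of the NADH shuttles, which carry reducing equivalents of glycolysis into mitochondria, 6 fell and none rose in WT MI (median −0.43), with the oxoglutarate carrier *Slc25a11* lowest at −0.59 (SE 0.12, adjusted p = 0.0079). Between the infarct groups this was the only one of the 8 lists with calls. Here 2 genes fell, *Slc25a13*, an aspartate-glutamate carrier named after its value was seen, and *Got1*, the cytosolic aspartate aminotransferase, at 387 and 329 for WT MI and 205 and 243 for KO-labelled MI (−0.67, SE 0.12, adjusted p = 0.047). In sham it was 449 and 458. Both calls were lost without WT MI replicate 1, WT MI replicate 2 or KO-labelled replicate 1, where 0 genes of the lists were called.

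Other glycolytic and gluconeogenic enzymes were mixed, with 3 of 14 higher and 2 lower in WT MI. *Pgm2*, a phosphoglucomutase, was 3.33 and 3.48 for sham, 13.2 and 8.51 for WT MI, and 14.0 and 13.4 for KO-labelled MI (log2 fold change 1.397, SE 0.20, adjusted p = 0.0013). Of 11 other genes of glucose and lactate transport, 4 rose and 2 fell in WT MI. *Emb*, encoding embigin, a partner of monocarboxylate transporters, was 0.36 and 0.50 for sham and 12.6 and 10.3 for WT MI, a rise (log2 fold change 3.12, SE 0.20, adjusted p = 4.8e-05), and stood at 10.8 and 7.91 for KO-labelled MI.

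Of the 17 genes of HIF-1 regulation and other hypoxia targets, 3 rose and 3 fell in WT MI, and the median change was 0.25 on the log2 scale. *Hif1a*, the oxygen-regulated subunit, was 23.3 and 21.5 for WT Sham, 58.5 and 54.8 for WT MI, and 55.6 and 54.2 for KO-labelled MI, and rose (log2 fold change 1.30, SE 0.10, adjusted p = 0.00010). The other called genes are named after their values were seen. *Ndrg1* (0.77) and *P4ha1* (0.63) also rose, while *Egln1* (−0.92), *Vegfa* (−0.69) and *Epas1* (−0.53) fell. The level of *Hif1a* mRNA does not give the activity of HIF-1, which was not tested.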

How the data were processed

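Expression was measured by RNA-seq in 6 mouse heart libraries, grouped by their labels. By their methods, the authors isolated RNA by TRIzol, selected and sequenced mRNA, aligned filtered reads to mm9 (BWA and Bowtie2), and deposited FPKM values to 2 decimals for each NCBI gene number above 0. These values are scaled by the length of the gene and the depth of the library, so abundant genes that change shift the rest. The gene annotation and the use of strand are not given in the sources used here. Gene numbers were matched to symbols through RefSeq (GRCm38.p6), and positions came from GENCODE for mm9. The 37 genes, their role groups and all lists were chosen with earlier results of these data known.

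Depth was estimated from the spacing of low FPKM values. Since only 71.7% to 75.7% of these came out whole within 0.15 of a fragment, counts were not rebuilt. Such estimates cover counting error only.

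Unlisted genes were set to 0. limma 3.58.1 in R 4.3.3 (lmFit and eBayes with trend) was run on log2(FPKM + 1), with all 3 groups in 1 fit, for genes that reached an FPKM of 1 in 2 or more libraries, and p-values were adjusted by Benjamini-Hochberg over 13120 genes. The fit was tested on simulated data. The alternatives were pseudocounts of 0.1 and 5, no filter, a minimum mean FPKM of 5, upper-quartile and quantile scaling, a replicate block, a fit of only the 2 groups compared, leaving out each library, and the study's screen recomputed. Values in all libraries are given for genes called with an absolute log2 fold change of at least 1 in WT MI against either other group, the highest gene of each role, *Gapdh* and the isoforms of the families compared, and beyond this rule for other genes of interest chosen after their values were seen. Of each further list the called gene with the largest absolute change is named, except for 1 result that is not reported here. Python 3.11.15, numpy 2.4.6, pandas 2.3.3 and matplotlib 3.10.9 were used for the remaining steps.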

Additional observations from a re-analysis of the deposited data

How the results depend on the processing

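With 2 libraries per group, the number of glucose genes called between KO-labelled MI and WT MI changed with most settings. Against 1 lower gene, there were 0 with a pseudocount of 0.1, without a filter, with the replicate block and with only the 2 groups compared, 2 with a pseudocount of 5, 3 with a mean FPKM of at least 5, and 0 to 3 when 1 library was left out. Against 0 higher, there was 1 with the replicate block and 1 in the study's screen, *Pdk4* in both. Of the neighbouring lists, 2 genes were called, but 0 with a pseudocount of 0.1, without a filter, with the replicate block and with only the 2 groups compared, 1 with upper-quartile scaling, 5 with a mean FPKM of at least 5, and 0 to 2 when 1 library was left out. The study's screen, which requires a 2-fold change, passed 7 higher and 3 lower genes in WT MI against WT Sham, and 6 lower in KO-labelled MI against WT Sham. *Gapdh* reversed with quantile normalization, to 0.61 in WT MI and 0.58 in KO-labelled MI against sham, and the cause was not tested. The other counts stayed within 1.5 times their value. Same-numbered libraries of different groups did not deviate together (Pearson r across genes of 0.0024, −0.0083 and 0.0204). This cannot tell whether same-numbered libraries were handled together. The replicate block left 12 higher and 9 lower genes in WT MI against WT Sham. Where 1 library was left out, the lone library was assumed to vary like the other groups. Genes near the worth of 3 fragments in sham, such as *Hk3*, *Slc16a3* and *Pdk3*, have poorly known sham levels.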
